A study of Mus musculus with 46 samples.

Results

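The 9 homeostatic signature genes of microglia, the resident macrophages of the brain, were followed through a bulk RNA-seq study of microglia lacking the miRNA-processing enzyme Dicer. The genes were Tmem119, Cx3cr1, Olfml3, Sparc, Slc2a5, Selplg, Bin1, Adgrg1 and Hpgd, and they were chosen by name, as the rows carrying those symbols in each deposited table. All 9 of 9 were present in all 4 tables, which list 19762 genes for the adult experiment and 24421 genes for each of the other 3. In the adult table Adgrg1 carries its older symbol, Gpr56. Microglia at rest express these genes as part of a program held up by signals from the brain, transforming growth factor beta among them, and inflammatory stimuli such as bacterial lipopolysaccharide (LPS) are known to lower many of them. Dicer cuts precursor hairpins into mature miRNAs, short RNAs that pair through their seed bases with 3′ untranslated regions (UTRs) and lower the output of the matching mRNA.

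The study comprised 46 libraries of freshly sorted mouse microglia, each value being the read number of a gene multiplied by 1 factor per library ("normalized reads" below). The sort gate for the 10 to 12 week old mice, for the 6 to 8 week old adults and for newborns kept CD45-intermediate, CD11b and F4/80 positive, Ly6C and Ly6G negative cells; for the embryos it kept CD45 positive cells with high F4/80. The adult, total brain and hippocampus experiments used mice aged 10 to 12 weeks, with the control genotype Cx3cr1CreER:Dicer+/- and the Dicer-deficient genotype Cx3cr1CreER:Dicerfl/-, so that all of them carried the CreER allele and a Dicer minus allele. Cre and CreER under the Cx3cr1 promoter act in Cx3cr1-expressing cells, other brain macrophages included, and the labels do not state an induction of CreER. The adult experiment held 4 control and 3 Dicer-deficient libraries at steady state. The total brain experiment held 3 control and 3 Dicer-deficient libraries at steady state, which the labels also call PBS, and 4 of each genotype 6 h after 1 mg/kg LPS given intraperitoneally. The hippocampus experiment held 2 control and 3 Dicer-deficient libraries at steady state and 2 of each after the same LPS dose. The developmental experiment held Dicerfl/fl controls without Cre at embryonic day 14 (E14, 4 libraries), at birth (P0, 5 libraries) and at 6 to 8 weeks (5 libraries), and 2 Dicer-deficient P0 libraries of the genotype Cx3cr1Cre:Dicerfl/fl. The labels do not say whether libraries of a group came from separate animals, so every p-value measures the spread between libraries. The Cre lines of these names are usually knock-ins at Cx3cr1, and the labels do not state the allele. P0 controls lack Cre, so no genotype difference at P0, Cx3cr1 included, can be told apart from the Cre allele itself.

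Depth ran from 898451 to 4573063 reads per library, and 401 of the 414 member values rested on at least 100 reads. General macrophage genes (Cd68, Itgam, Ptprc, Aif1, Adgre1) summed to at least 4947.7 normalized reads in every library. The 28 genes of a wider homeostatic microglial list summed to at least 43159.65, and markers of lymphocytes to at most 19.8 in any library. Dicer1, the targeted gene, differed by a log2 fold change of 0.22 in the adult experiment (adjusted p = 0.764), -0.49 in total brain at steady state (adjusted p = 0.427) and 0.83 at P0 (adjusted p = 0.254); reads from an oligo-dT library can lie outside the deleted exon, so these values check nothing. In total brain, control LPS library 33 stood apart from the other 3. Its Saa3, an acute-phase protein induced by LPS, read 82.2 against 2660.2, 2667 and 2942 in the others and 23.6 to 47.1 in steady-state controls, and its Tnf and Il1b were lower than in the other LPS controls while Lcn2 (639.8) was higher. Its summed monocyte and neutrophil markers (9 genes, Lcn2 included) were 4285, the highest among the LPS controls. For comparisons that include its group, the calls on members are also given without library 33. The steady-state genotype comparison and the LPS comparison in Dicer-deficient libraries share 1 estimate of spread with it. They were not fitted with it alone left out.

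A promoter is printed for each of 5 members on which the results turn: Slc2a5 and Hpgd fell furthest after LPS, Sparc and Cx3cr1 were least like the other members, and Adgrg1 was the only one with AP-1 matches. Each run below is the 250 bases before a RefSeq start (GRCm38.p6), 5′ to 3′ on the gene's strand, in lower case, with motif matches in capitals; RefSeq promoter entries matched 6 of the 9 members (7 starts) and not Tmem119, Selplg or Bin1.
Slc2a5, chr4:150119094-150119343, plus strand: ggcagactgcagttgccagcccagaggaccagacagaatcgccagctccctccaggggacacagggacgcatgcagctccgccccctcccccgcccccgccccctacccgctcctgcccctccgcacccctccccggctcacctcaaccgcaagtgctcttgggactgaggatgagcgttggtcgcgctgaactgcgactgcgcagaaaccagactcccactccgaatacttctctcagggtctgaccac
Hpgd, chr8:56294302-56294551, plus strand: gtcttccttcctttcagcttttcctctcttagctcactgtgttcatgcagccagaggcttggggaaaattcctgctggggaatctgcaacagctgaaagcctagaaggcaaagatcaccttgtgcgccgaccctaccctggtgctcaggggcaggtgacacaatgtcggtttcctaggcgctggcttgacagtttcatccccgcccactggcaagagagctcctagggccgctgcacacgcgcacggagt
Adgrg1, the later of its listed starts, chr8:94984149-94984398, plus strand: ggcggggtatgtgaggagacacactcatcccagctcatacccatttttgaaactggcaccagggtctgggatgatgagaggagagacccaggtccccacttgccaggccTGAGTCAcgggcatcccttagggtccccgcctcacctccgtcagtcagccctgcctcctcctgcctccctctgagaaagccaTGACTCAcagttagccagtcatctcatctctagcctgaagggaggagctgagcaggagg
Cx3cr1, chr9:120068297-120068546, minus strand: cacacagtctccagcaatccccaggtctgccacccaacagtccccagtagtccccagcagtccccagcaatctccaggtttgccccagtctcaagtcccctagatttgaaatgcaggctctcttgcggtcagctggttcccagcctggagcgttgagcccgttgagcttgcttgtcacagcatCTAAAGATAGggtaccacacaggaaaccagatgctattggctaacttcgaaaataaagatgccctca
Sparc, chr11:55420081-55420330, minus strand: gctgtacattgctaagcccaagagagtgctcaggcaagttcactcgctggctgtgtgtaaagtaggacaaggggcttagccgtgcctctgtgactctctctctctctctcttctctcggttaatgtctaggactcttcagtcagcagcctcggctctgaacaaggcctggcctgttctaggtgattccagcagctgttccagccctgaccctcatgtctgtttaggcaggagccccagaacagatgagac
Both strands of the 7 promoter entries were searched for an AP-1 motif (TGANTCA), a loose MEF2 pattern (CTA and TAG with any 4 bases between), a PU.1 motif (GAGGAAGT), a SMAD motif (GTCTAGAC) and an NF-kB motif (GGGA, any base, then TTTCC). The later Adgrg1 start carried TGAGTCA with its first base at position -141 and TGACTCA at position -59, counted from the start; 6.75% of all 32851 promoters of this length hold an AP-1 match. The Cx3cr1 promoter carried a match to the loose MEF2 pattern, CTAAAGATAG, with a G among the middle bases, at position -67. Of all promoters, 3.2% match this loose pattern. The letters of the other 3 motifs, held by 2.44%, 0.167% and 0.356% of promoters, were not in these windows.

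**Figure D1:**
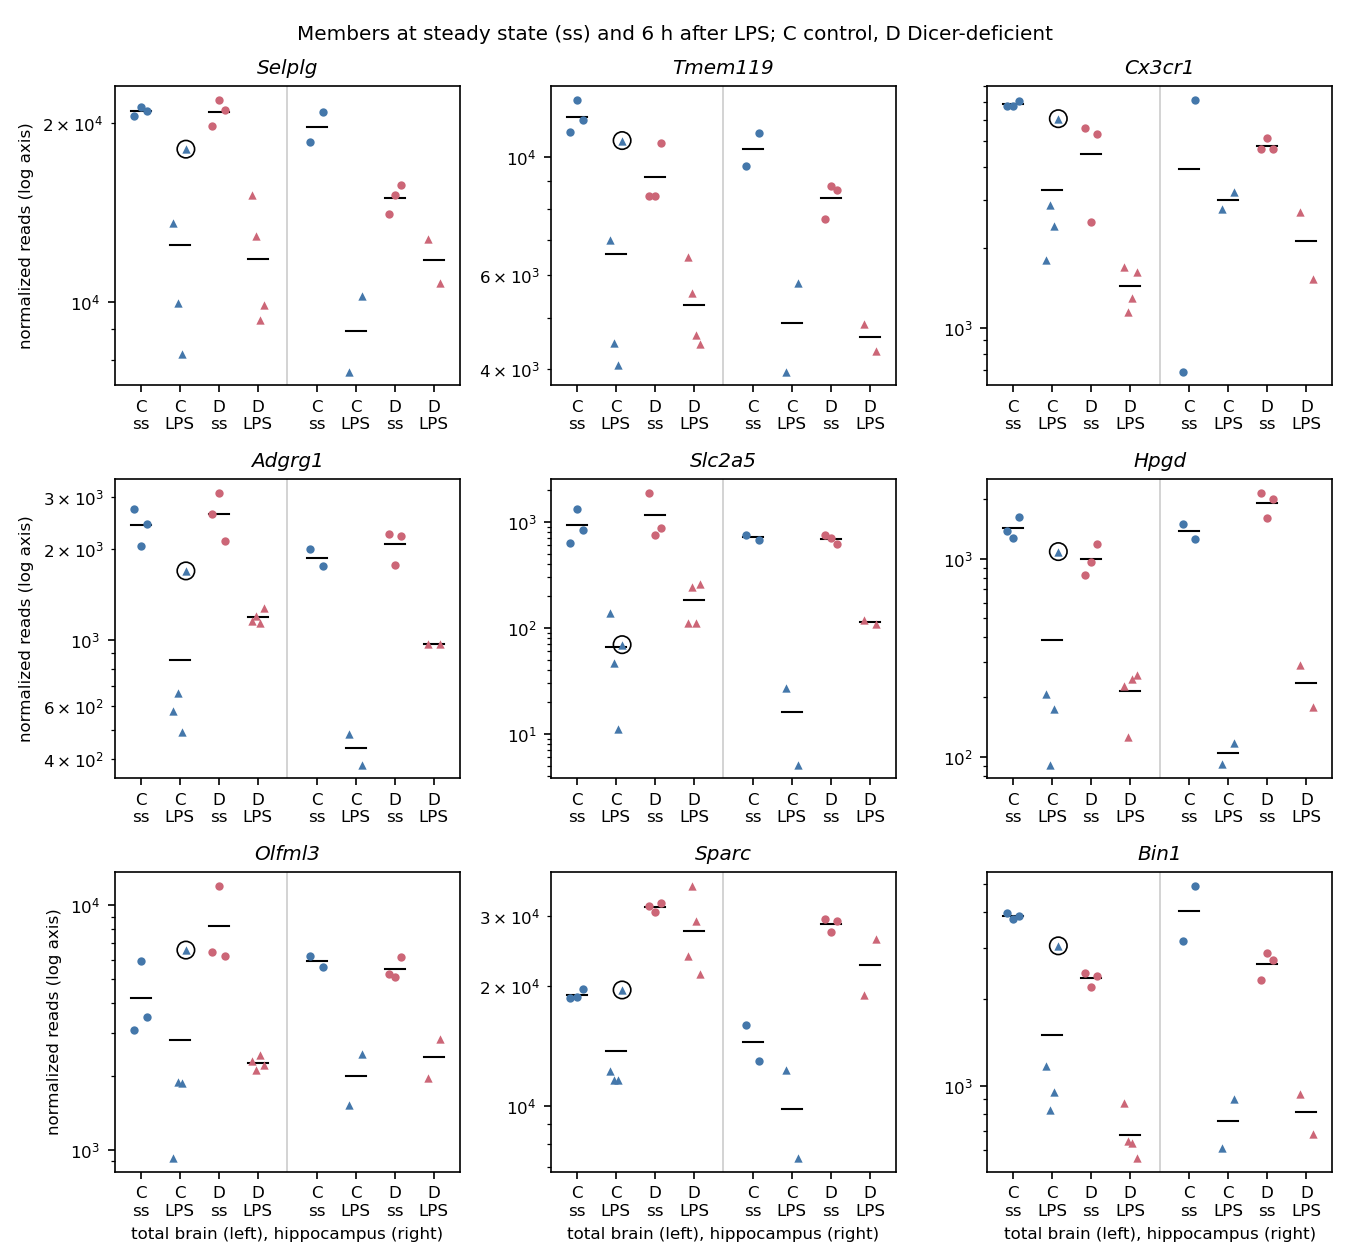
Normalized reads of each member (log axis, 1 panel per gene) in every total brain library (left side of each panel) and hippocampal library (right side), for control (C) and Dicer-deficient (D) microglia at steady state (circles) and 6 h after LPS (triangles), with lines at group means and a black ring on total brain control LPS library 33. Slc2a5 and Hpgd lie furthest below their steady-state libraries after LPS in both regions, and Sparc least far in total brain.

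After LPS most members were lower. In control microglia of the total brain, 6 of the 9 fell (Slc2a5, Hpgd, Adgrg1, Bin1, Cx3cr1 and Tmem119) and none rose, where 7.08% of the 13423 genes tested fell. The median log2 fold change was -1.22 over the members and -0.05 over all genes tested. In Dicer-deficient microglia 6 of 9 fell, with Olfml3 in place of Tmem119, where 12.8% of genes tested fell, and the member median was -1.56. Calls are from limma on log2(value + 1) at a Benjamini-Hochberg adjusted p below 0.05 over all genes, fold changes are on that scale, and in these sorted populations fewer cells that express a gene and less RNA per cell cannot be told apart.

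The transporter and the enzyme of the list fell furthest. Slc2a5, the fructose transporter of microglia, read 629.7, 1338 and 842 in control total brain libraries 7, 8 and 9, and 138, 46.7, 11 and 69.3 in LPS libraries 17, 31, 32 and 33. Every LPS library lay below every steady-state one, as for 11.3% of genes, and the fall was 4.20 ± 0.58 (SE) on the log2 scale, from 937 ± 364 to 66.3 ± 53.6 normalized reads (SD, n = 3 and 4; adjusted p = 7.64e-04). In Dicer-deficient libraries it read 1882, 744 and 874 at steady state and 110.2, 243, 111 and 261 after LPS, again without overlap, as for 16.4% of genes, a log2 fold change of -2.67 ± 0.58 (adjusted p = 2.71e-03). Hpgd, the dehydrogenase that inactivates prostaglandins, read 1379.5, 1272.5 and 1626.5 in controls and 206, 90.8, 173.5 and 1087 after LPS, a log2 fold change of -2.53 ± 0.53 (adjusted p = 5.74e-03). The value of 1087 is library 33, which is the only LPS control near the steady-state range; without it the log2 fold change was -3.25 (adjusted p = 1.95e-07). Dicer-deficient Hpgd went from 827, 967 and 1187 to 228, 126, 245 and 259.8, a log2 fold change of -2.24 ± 0.53 (adjusted p = 4.50e-03).

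Adgrg1, an adhesion G-protein-coupled receptor, and Bin1, a BAR-domain adaptor of membrane curvature, fell in both genotypes. Adgrg1 read 2739, 2048 and 2426 in controls and 577, 662, 489.5 and 1695.5 after LPS, a log2 fold change of -1.67 ± 0.30 (adjusted p = 3.43e-03). Its Dicer-deficient libraries went from 2630.0, 3091 and 2130.2 to 1151, 1201, 1139 and 1277.5, a log2 fold change of -1.12 ± 0.30 (adjusted p = 0.0121). No LPS library of either genotype reached the steady-state range. Bin1 went from 3987, 3809 and 3879 to 1176, 828, 951 and 3063 in controls (log2 fold change -1.58 ± 0.32, adjusted p = 4.98e-03), and from 2459, 2208.5 and 2415 to 874, 647, 633 and 563 in Dicer-deficient libraries (-1.81 ± 0.32, adjusted p = 4.95e-04). In controls without library 33 the log2 fold change of Bin1 was -1.996 and that of Adgrg1 -2.06.

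Of the surface proteins, Cx3cr1, the receptor for the neuronal chemokine fractalkine, went from 6774, 6773 and 7076 to 1801, 2875, 2399.9 and 6058 in controls, a log2 fold change of -1.22 ± 0.34 (adjusted p = 0.0254). Its Dicer-deficient libraries went from 5575, 2487 and 5330.2 to 1693, 1147, 1298 and 1625, a log2 fold change of -1.56 ± 0.34 (adjusted p = 2.96e-03). Each of these comparisons is made within 1 labelled genotype. Tmem119, a membrane protein used to tell microglia from other macrophages, went from 11160, 12816 and 11718 to 6987, 4478, 4078 and 10738 in controls (log2 fold change -0.97 ± 0.31, adjusted p = 0.0446). In Dicer-deficient libraries Tmem119 lay at 8435, 8444.0 and 10611 and, after LPS, at 6484.5, 5570.0, 4634 and 4466, without overlap but short of the threshold (-0.80 ± 0.31, adjusted p = 0.0662). The calls on Cx3cr1 and Tmem119 in controls were narrow: both were lost when any 1 library other than 33 was left out (adjusted p = 0.0586 to 0.142 for Tmem119 and 0.0641 to 0.0831 for Cx3cr1). Selplg, the selectin ligand of leukocytes, had log2 fold changes of -0.82 ± 0.33 in controls (adjusted p = 0.11) and -0.85 ± 0.33 in Dicer-deficient libraries (adjusted p = 0.0684), again with no overlap in either genotype.

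Of the 2 secreted members, 1 passed the test with all libraries, and in 1 genotype. Olfml3, a secreted olfactomedin-like glycoprotein, went from 6456.5, 11990 and 6177 to 2309.9, 2119.9, 2444 and 2230.2 in Dicer-deficient libraries, a log2 fold change of -1.78 ± 0.45 (adjusted p = 7.34e-03). In controls it read 3082, 5919 and 3498 at steady state and 926, 1889.6, 1884 and 6561 after LPS, the last being library 33, and did not pass the test (-0.89 ± 0.45, adjusted p = 0.202). Sparc, a matricellular glycoprotein that binds collagen, passed in neither genotype. Its control libraries read 18639.7, 18744 and 19626 at steady state and 12214, 11611, 11585 and 19518 after LPS (-0.51 ± 0.34, adjusted p = 0.355), and its Dicer-deficient libraries 31702, 30624 and 32327 and then 23743, 35606, 29099 and 21417 (-0.23 ± 0.34, adjusted p = 0.681). Of the 9 members Sparc had the fold change nearest to 0 in both genotypes.

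Without library 33, 8 of the 9 members fell in total brain controls, all but Sparc (log2 fold change -0.69, adjusted p = 0.0746), where 25.5% of all genes tested changed in either direction against 14.1% with it. Olfml3 then passed at -1.43 (adjusted p = 1.67e-03) and Selplg at -1.02 (adjusted p = 8.96e-03), and Slc2a5, Cx3cr1 and Tmem119 were at -4.38, -1.57 and -1.24. The difference in the LPS response between genotypes was tested directly and passed for 0 of 9 members, with or without library 33, against 0.171% of all genes with it; with all libraries 0 had an unadjusted p below 0.05, and edgeR and DESeq2 called 0. The largest such difference was that of Slc2a5, 1.53 ± 0.82 on the log2 scale (adjusted p = 0.602). The 9 monocyte and neutrophil markers, none at 0 throughout, summed to 10.4 to 42.0 in steady-state controls and 343 to 4285 in LPS controls. In Dicer-deficient libraries they summed to 31.9 to 403 at steady state and 2012 to 5248 after LPS. Lcn2, which rose after LPS in both genotypes, is 1 of the 9. It read 208 to 639.8 in LPS controls and 1415 to 2603 in Dicer-deficient LPS libraries. Whether its rise lay in microglia or in other cells was not tested. The part of these markers in the member values was not tested.

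In the hippocampus most members also fell at the same LPS dose. Among controls 7 of 9 members fell (all but Sparc and Cx3cr1), where 2.89% of the 12366 genes tested fell, and among Dicer-deficient libraries 6 of 9 fell, where 4.61% did. Member medians were -1.602 and -1.21, beside 0 and 0.05 over all genes tested. Slc2a5 read 753 and 675 in control libraries 1 and 2 and 26.9 and 5.08 in LPS libraries 15 and 16, the last value resting on 8 reads with a 95% exact Poisson interval of 2.19 to 10.0 that covers counting error only. Its log2 fold change was -5.78 ± 0.55 (adjusted p = 1.43e-04). In Dicer-deficient hippocampus it went from 748, 703 and 618 to 119 and 109 (-2.58 ± 0.50, adjusted p = 7.58e-03). Every LPS library lay below every steady-state one, as for 23.9% of genes in controls and 17.1% in Dicer-deficient libraries, and the Dicer-deficient LPS libraries lay above the control ones.

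Hpgd went from 1501 and 1257 to 92.2 and 117 in hippocampal controls (log2 fold change -3.71 ± 0.29, adjusted p = 4.01e-05) and from 2155, 1610.1 and 1998 to 292 and 178 in Dicer-deficient libraries (-3.06 ± 0.27, adjusted p = 4.68e-05). Bin1 went from 3181 and 4935.5 to 609 and 902 (-2.42 ± 0.28, adjusted p = 4.75e-04) and from 2334, 2881 and 2739 to 941 and 685 (-1.72 ± 0.26, adjusted p = 1.64e-03). Adgrg1 went from 1999.8 and 1759 to 485 and 381 (-2.12 ± 0.23, adjusted p = 3.26e-04) and from 2253, 1769 and 2210.2 to 963 and 966 (-1.10 ± 0.21, adjusted p = 6.60e-03). No LPS library of these genes reached its steady-state range. Olfml3, Tmem119 and Selplg also fell in controls, at log2 fold changes of -1.602, -1.11 and -1.15, and of these Olfml3 and Tmem119 fell in Dicer-deficient libraries, at -1.21 and -0.87. The control calls on Tmem119 and Selplg were lost without LPS library 15 or either steady-state library. Leaving out Dicer-deficient LPS library 18 reduced the 6 calls in that genotype to 2, those of Bin1 and Hpgd, and without library 20 those on Slc2a5 and Tmem119 were lost; Tmem119 was also lost without steady-state library 5 or 6.

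Cx3cr1 was uneven in the hippocampus. Control library 1 read 688 and library 2 read 7139, against 4661, 5109.5 and 4656 in the Dicer-deficient libraries, and the LPS controls read 2795 and 3238. The LPS difference in controls was 0.44 ± 0.73 on the log2 scale with both libraries (adjusted p = 0.833), -1.25 without library 1 (adjusted p = 0.0897) and 2.13 without library 2 (adjusted p = 0.0135), so its sign follows which of the 2 libraries is used. The genotype difference at steady state likewise went from 1.12 ± 0.67 (adjusted p = 0.598) to -0.57 without library 1 (adjusted p = 0.605) and 2.80 without library 2 (adjusted p = 0.0169). In Dicer-deficient libraries after LPS Cx3cr1 read 2718 and 1523, without overlap, and did not pass (-1.24 ± 0.67, adjusted p = 0.312). Markers of border macrophages (7 genes) also differed between hippocampal conditions: they summed to 295 to 477 at steady state over both genotypes and 1.39 to 35.5 after LPS. Monocyte and neutrophil markers (9 genes, Lcn2 included, none at 0 throughout) summed to 506 to 2539 in steady-state and 320.5 to 1717 in LPS controls. In Dicer-deficient libraries they summed to 7946 to 8340 and then 1445 to 3072. The part of either list in the member values was not tested. No member passed the test of a genotype difference in the hippocampal LPS response (limma, 0 of 9, 0.0162% of all genes; 3 had an unadjusted p below 0.05, edgeR called 0 and DESeq2 called 1, Slc2a5), and the largest value was again that of Slc2a5, 3.20 ± 0.74 (adjusted p = 0.452), which reached 4.30 (adjusted p = 0.0124) without control LPS library 15. The regions were sequenced in tables scaled apart from each other, so a difference between them was not tested.

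**Figure D2:**
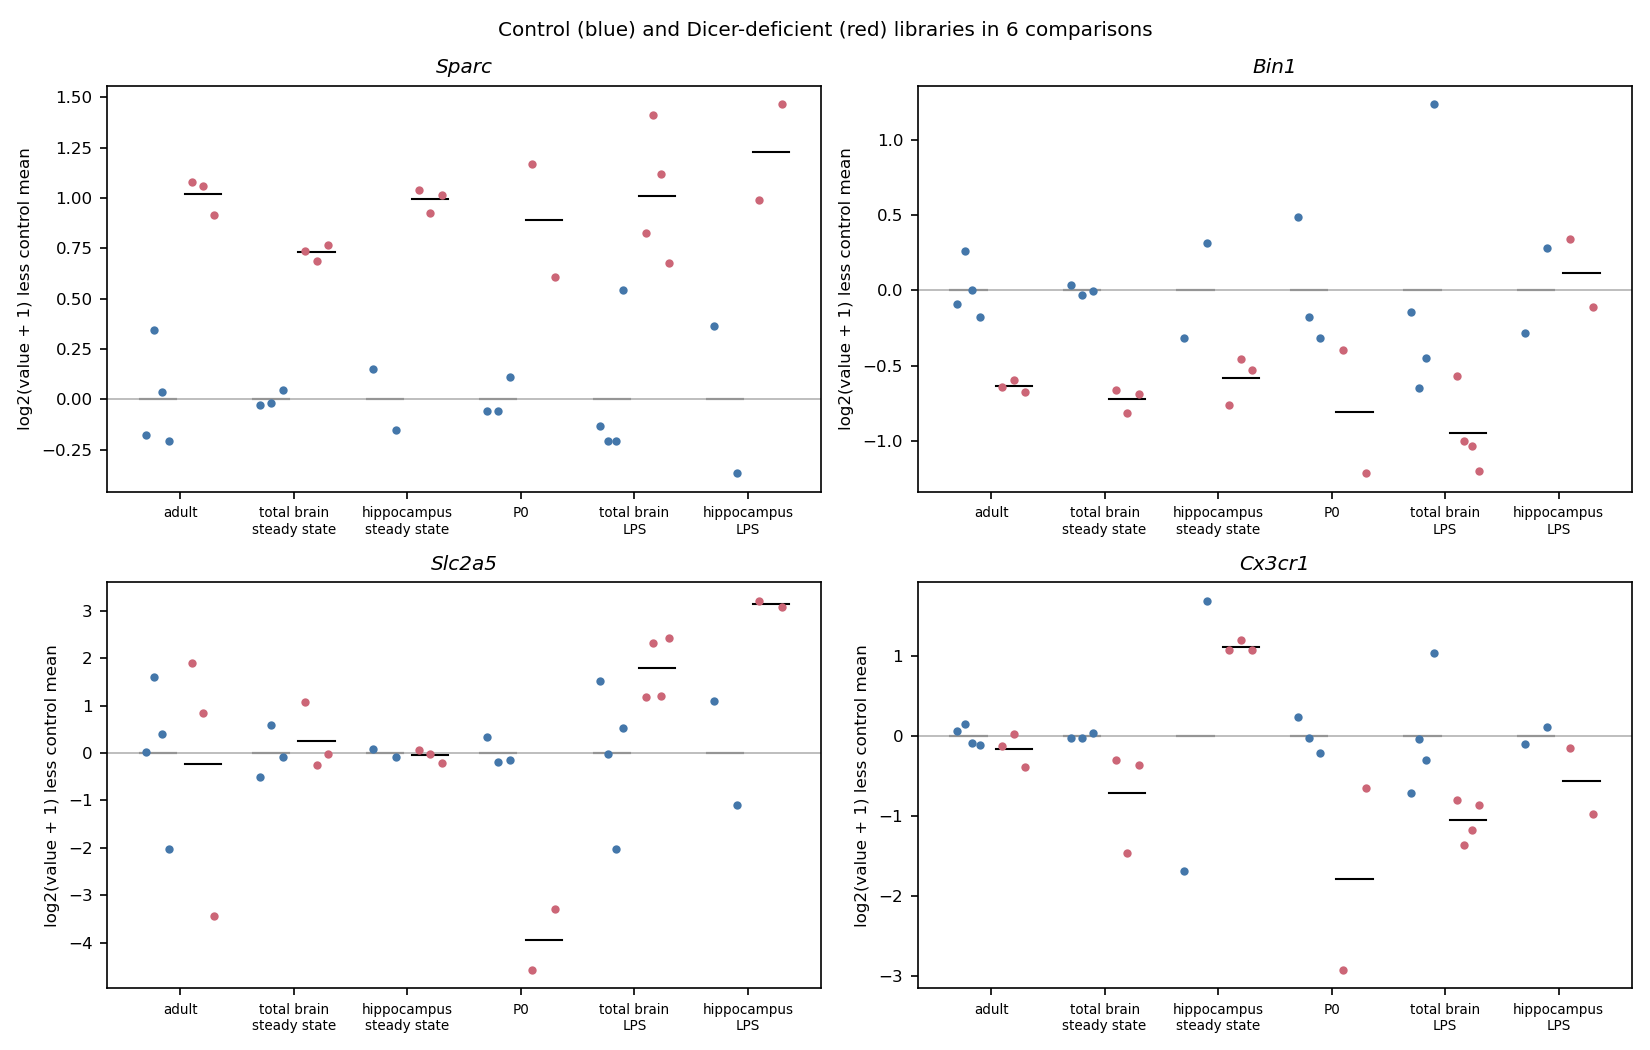
Each library's log2(value + 1) less the mean of its control group, for Sparc, Bin1, Slc2a5 and Cx3cr1 in the 6 comparisons of Dicer-deficient (red) with control (blue) microglia; the P0 comparison uses controls 1 to 3. Sparc lies above all its controls in every comparison, and Bin1 below them in the 4 comparisons without LPS.

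Dicer-deficient microglia had higher Sparc in every comparison made. In the adult experiment it read 50429, 49605 and 44888 in the Dicer-deficient libraries and 21105, 30300.4, 24424 and 20619 in controls, a mean of 48307 ± 2990 (SD, n = 3) against 24112 ± 4459 (SD, n = 4). That is a log2 fold change of 1.02 ± 0.20 (adjusted p = 5.14e-03), where 3.15% of all genes were called higher, and the groups did not overlap, as for 9.79% of genes. At steady state in total brain, 31702, 30624 and 32327 lay above 18639.7, 18744 and 19626 (0.73 ± 0.37, adjusted p = 0.351), and in hippocampus 29463, 27296 and 29053 lay above 15936 and 12924 (0.99 ± 0.26, adjusted p = 0.173); 9.15% and 10.5% of genes were higher without overlap there. Neither of these passed in a fit that estimates 1 spread over all groups of the table. In a limma fit on the compared groups alone, Sparc passed in hippocampus (adjusted p = 0.0253) and not in total brain. At P0, 11402 and 7740.4 lay above 4870.5, 4877 and 5484 in controls 1 to 3 (0.89 ± 0.43, adjusted p = 0.266), where 17.3% of genes were higher without overlap; control 4, which is not in that comparison, read 8071, and with all 5 controls the groups overlapped (0.72, adjusted p = 0.0801). Sparc was higher without overlap in all 6 comparisons, as were 31 of the 10228 genes tested in each (0.303%). The 6 share no library, and in the P0 comparison the groups also differ in Cre. Astrocytes also express Sparc: the 5 astrocyte markers summed to 606 to 1124 in Dicer-deficient and 1381 to 1563 in control adult libraries, with Gfap and Gja1 at 0 in all 7. In total brain they summed to 392 to 802 against 576 to 1008 at steady state and 1094 to 2036 against 593 to 859 after LPS, and in hippocampus to 519 to 736 against 699.7 to 700.7 and 1215 to 1567 against 476 to 955, with Aqp4 at 0 in every library of both tables. At P0 the astrocyte markers summed to 2.6 to 19.9 against 35.5 to 59.0 over all 5 controls. Endothelial and mural markers (8 genes, 3 at 0 in adults) summed to 84.95 to 139 against 159 to 223 in adults. At P0 they summed to 75.4 to 139 against 39.8 to 97.4. In total brain they summed to 46.2 to 122 against 78.2 to 122, and after LPS to 30.6 to 92.5 against 45.5 to 76.1. In hippocampus it was 1.62 to 48.6 against 3.91 to 21.25, and 28.9 to 41.65 against 59.7 to 73.4. The part of either list in the Sparc values was not tested.

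Sparc's 3′ UTR (1085 bases in its longest GENCODE form, GRCm38) holds 2 matches to the seed of miR-29a-3p, printed because Sparc is the member whose groups did not overlap in any Dicer comparison. The capitals mark the seed of the miRNA (bases 2 to 8) and the matching bases of the UTR: in Sparc, on the minus strand, the complement of bases 2 to 7 followed by A.
miR-29a-3p: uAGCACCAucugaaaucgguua
Sparc, chr11:55395466-55395487: gcctggggataaGGTGCTAaca
Sparc, chr11:55395433-55395454: gaatacattaacGGTGCTAaaa
Of 20957 mouse 3′ UTRs, 16% hold at least 1 match to this miRNA and 4.83% hold 2 or more. Slc2a5 holds a match to miR-146a-5p, as 18.1% of UTRs do, and another to miR-223-3p, as 15% do. Here the capitals mark the complement of bases 2 to 8.
miR-146a-5p: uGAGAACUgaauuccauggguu
Slc2a5, chr4:150143757-150143778, plus strand: ccaagacatagcAGTTCTCtac
miR-223-3p: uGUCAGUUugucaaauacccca
Slc2a5, chr4:150143548-150143569, plus strand: ttttaccagcaaAACTGACtct
For these matches 7 miRNAs with 7 different seeds were searched, chosen with the values known. Of the 63 pairs of member and miRNA, 10 had a match, in 5 members, and Bin1, Adgrg1, Selplg and Hpgd had none. By miRNA, 10.2% (miR-142a-3p) to 20.9% (miR-342-3p) of all UTRs hold a match, a range within which the members' share lies. The miRNAs themselves were not measured in these libraries, and a match describes letters only.

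Bin1 was lower in Dicer-deficient microglia in each comparison without LPS. In the adult experiment it read 6721, 6927 and 6545 against 9865, 12572, 10520.5 and 9254 in controls (log2 fold change -0.64 ± 0.15, adjusted p = 0.0198), where 2% of all genes tested fell. The groups did not overlap, as for 6.68% of genes, and the call was lost without Dicer-deficient library 1 (adjusted p = 0.0564), control 2 (adjusted p = 0.0506) or control 3 (adjusted p = 0.0665). In total brain 2459, 2208.5 and 2415 lay below 3987, 3809 and 3879 (-0.72 ± 0.34, adjusted p = 0.312). In hippocampus 2334, 2881 and 2739 lay below 3181 and 4935.5 (-0.59 ± 0.26, adjusted p = 0.45). Of all genes, 13.7% were lower without overlap in either region. In a limma fit on the compared groups alone, Bin1 passed in total brain (adjusted p = 0.021) and not in hippocampus. At P0, 1471 and 832 lay below 2722, 1717 and 1557 (-0.81 ± 0.38, adjusted p = 0.257), as 20.6% of genes did, and below all 5 controls when these were used (-0.82, adjusted p = 0.0306). Bin1 was thus lower without overlap in the 4 steady-state comparisons, as were 69 of 10228 genes (0.675%). In the P0 comparison the groups also differ in Cre.

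Hpgd was the third member called in the adult experiment, making 2 higher and 1 lower of 9 where 5.15% of all genes were called. It read 6216, 5691 and 4195 in Dicer-deficient libraries and 2782, 4282.5, 3249 and 3138 in controls (0.67 ± 0.17, adjusted p = 0.0311), and control 2 lay above Dicer-deficient library 3; leaving out Dicer-deficient library 1 or 2 or control 1, 3 or 4 ended the call (adjusted p = 0.0557 to 0.134). Elsewhere it lay on either side of control: in total brain at steady state Hpgd read 827, 967 and 1187 against 1379.5, 1272.5 and 1626.5, lower without overlap (-0.53 ± 0.56, adjusted p = 0.706), and in hippocampus higher without overlap (0.47 ± 0.27, adjusted p = 0.578). Tmem119 in the adult experiment read 19838, 24067 and 14374 against 23694, 32406, 31465 and 30017 (-0.62 ± 0.20, adjusted p = 0.0949); the count tests on recovered reads put it past the threshold (edgeR with TMM scaling, adjusted p = 0.0241). Slc2a5 varied most within groups there, from 111 to 4547 in Dicer-deficient libraries and 298 to 3740.2 in controls. The other 4 adult members had log2 fold changes between -0.39 (Selplg) and 0.26 (Olfml3), all with overlapping groups.

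At steady state in total brain 0 of 9 members passed (2.18% of all genes did), and 1, Bin1, had an unadjusted p below 0.05; DESeq2 on recovered reads called 1, Sparc. Olfml3 read 6456.5, 11990 and 6177 against 3082, 5919 and 3498, higher without overlap (0.97 ± 0.48, adjusted p = 0.344), as 9.15% of genes were. Cx3cr1 (-0.71 ± 0.37) and Tmem119 (-0.38 ± 0.33) were lower without overlap, as 13.7% of genes were. In hippocampus at steady state 0 of 9 passed (0.17% of all genes), 2 had an unadjusted p below 0.05, Sparc and Bin1, and DESeq2 called 1, Sparc. Monocyte and neutrophil markers, Lcn2 included, summed to 7946 to 8340 normalized reads in the 3 Dicer-deficient hippocampal libraries and 506 to 2539 in the controls. Their part in these values was not tested.

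After LPS the genotypes differed in 4 of 9 members in total brain, where 9.4% of all genes were called, all with adjusted p-values just inside the threshold. With a pseudocount of 0.1, no filter or a fit on these groups alone 0 passed, and 0 to 3 passed when 1 library was left out. Sparc (23743, 35606, 29099 and 21417 against 12214, 11611, 11585 and 19518) was higher by 1.01 ± 0.30 (adjusted p = 0.0445). Slc2a5 was higher by 1.79 ± 0.54 (adjusted p = 0.0463), with values of 110.2 to 261 against 11 to 138. Cx3cr1 was lower, at 1147 to 1693 against 1801 to 6058 (-1.05 ± 0.32, adjusted p = 0.0465), as was Bin1, at 563 to 874 against 828 to 3063 (-0.95 ± 0.29, adjusted p = 0.0499). Of these, Sparc and Cx3cr1 did not overlap, where 6.25% of genes were higher and 8.71% lower without overlap. Without library 33 the call on Sparc (1.19, adjusted p = 4.50e-03) and Slc2a5 (1.97, adjusted p = 0.0355) held, those on Cx3cr1 (-0.70, adjusted p = 0.0842) and Bin1 (-0.54, adjusted p = 0.0504) did not, and Adgrg1, at 1139 to 1277.5 against 489.5 to 662, was called higher (1.06, adjusted p = 6.23e-04), where 9.27% of all genes were called. With library 33 Adgrg1 did not pass (0.67 ± 0.28, adjusted p = 0.156). Hpgd passed neither way, at -0.24 with library 33 and 0.48 without it.

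The hippocampus after LPS had 1 call among the 9, where 0.307% of all genes were called. Slc2a5 read 119 and 109 in Dicer-deficient libraries 18 and 20 and 26.9 and 5.08 in controls (3.14 ± 0.55, adjusted p = 0.0318), and the call was lost without library 18, without library 20 or without control 16. Adgrg1, at 963 and 966 against 485 and 381 (1.16 ± 0.23, adjusted p = 0.0634), Sparc, at 18907 and 26268 against 12273 and 7380.4 (1.23 ± 0.29, adjusted p = 0.144), and Hpgd, at 292 and 178 against 92.2 and 117 (1.13 ± 0.29, adjusted p = 0.184), were higher without overlap, as 16.4% of genes were. Cx3cr1, at 2718 and 1523 against 2795 and 3238, was lower without overlap, as 22% of genes were, and Bin1 overlapped here as in total brain after LPS.

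At P0, in newborn Dicer-deficient microglia, 1 of 9 members passed where 1.48% of all genes did. Slc2a5 read 5.20 and 14.05 in the Dicer-deficient libraries against 185, 128 and 133 in controls 1 to 3, a log2 fold change of -3.93 ± 0.43 (adjusted p = 3.46e-03). The first value rests on 2 reads, with a 95% exact Poisson interval of 0.63 to 18.8 normalized reads for counting error, and the call was lost without control 1 (adjusted p = 0.0792) or control 2 (adjusted p = 0.159). With all 5 controls, of which control 5 read 44.4, the fold change was -3.58 (adjusted p = 6.76e-03). In adults after LPS Slc2a5 had been higher in Dicer-deficient libraries; the difference between the 2 was not tested. Selplg, at 1326 and 842 against 675, 426 and 512, was higher without overlap (1.00 ± 0.32, adjusted p = 0.14), though P0 control 4 read 1049.6. Cx3cr1, at 647 and 3129 against 5801, 4836 and 4244, was lower without overlap (-1.79 ± 0.58, adjusted p = 0.144). None of these P0 differences can be told apart from the Cre allele, which the controls lack.

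**Figure D3:**
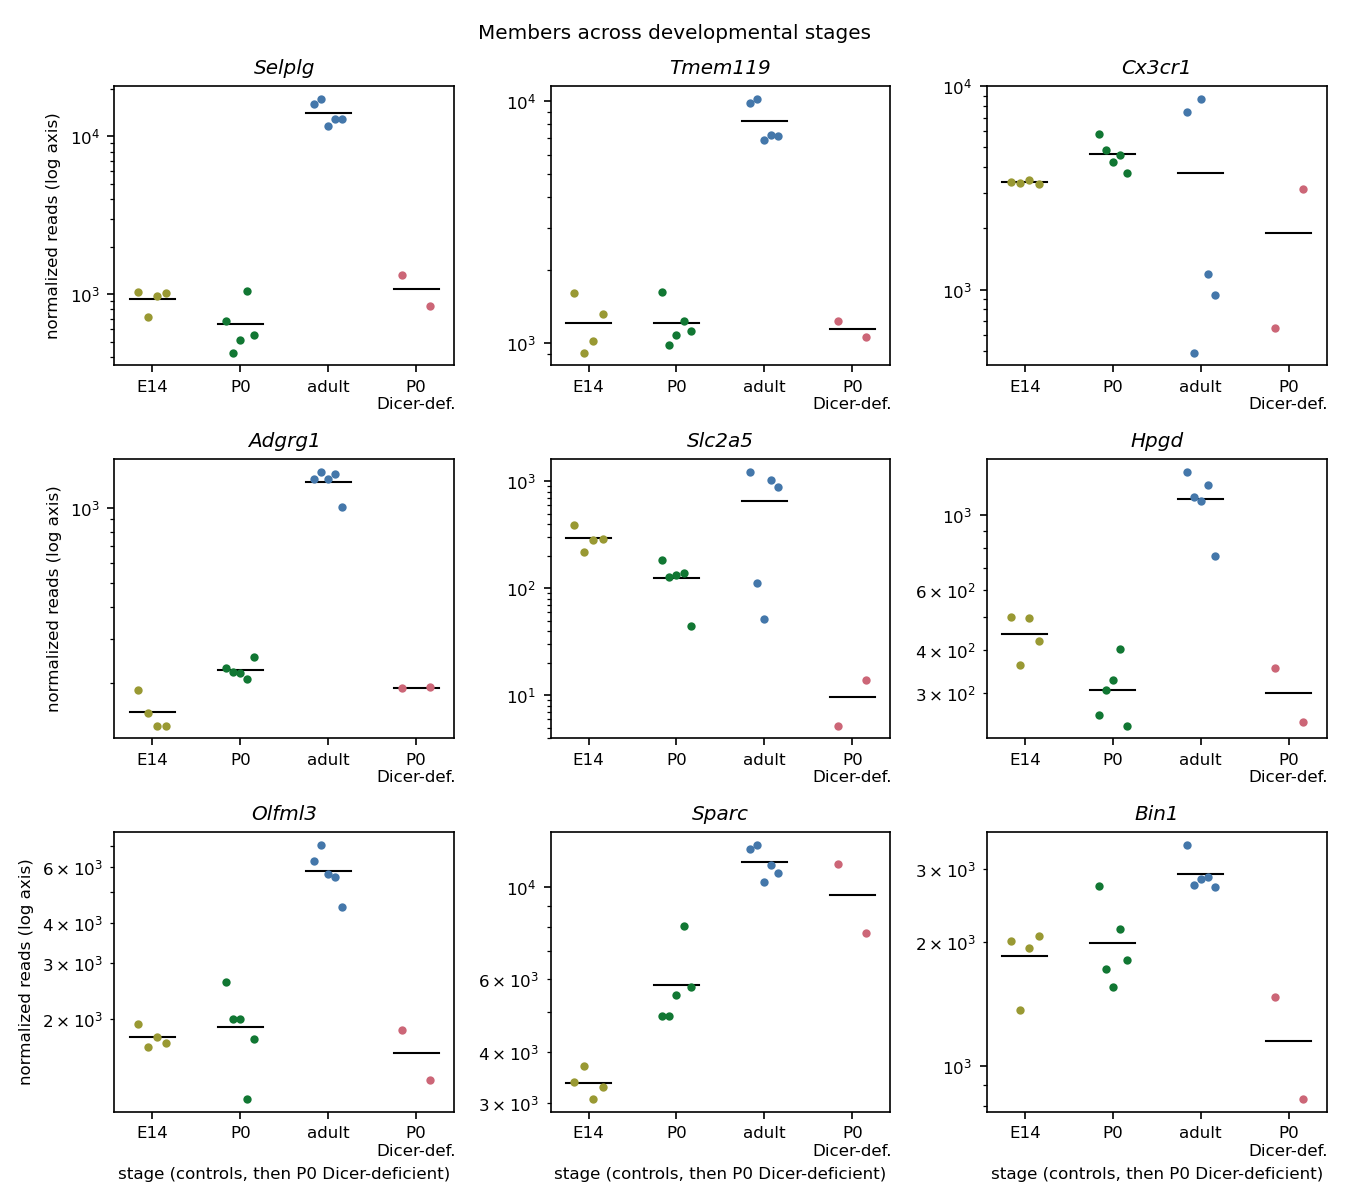
Normalized reads (log axis, 1 panel per gene) in E14, P0 and adult control libraries without Cre and in Dicer-deficient P0 libraries, with lines at group means. Selplg, Tmem119, Adgrg1 and Hpgd stand highest in adults, while adult Cx3cr1 and Slc2a5 libraries fall far apart.

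Across stages, most members were higher in adults than at birth. From P0 to 6 to 8 weeks 8 of 9 rose, all but Cx3cr1, where 19.2% of the 13447 genes tested rose; the member median was 1.67 and that of all genes -0.08. From E14 to adult 7 of 9 rose, where 20.4% of genes did, with a member median of 1.72. Between E14 and P0 only Sparc and Adgrg1 rose and Hpgd fell, where 22.7% of genes were called in either direction.

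Selplg rose most. It read 1038, 716, 967 and 1009 at E14, 675, 426, 512, 1049.6 and 551 at P0, and 15898, 17295, 11643, 12847 and 12786 in adults, a log2 fold change of 4.51 ± 0.21 from P0 (adjusted p = 1.11e-12). Tmem119 read 915 to 1613 at E14, 988 to 1629.8 at P0 and 6895 to 10205 in adults, a rise of 2.77 ± 0.19 from P0 (adjusted p = 2.26e-10). These 2 surface proteins had no call between E14 and P0. Adgrg1 stepped up at each interval, from 134.7 to 187.5 at E14 to 207 to 253 at P0 (0.58 ± 0.14, adjusted p = 4.98e-03) and 1002 to 1388 in adults (2.48 ± 0.13, adjusted p = 5.41e-12). Sparc did likewise, from 3074 to 3702 at E14 to 4870.5 to 8071 at P0 (0.77 ± 0.22, adjusted p = 0.0142, and 0.0505 without E14 library 3) and 10277 to 12640.0 in adults (1.01 ± 0.20, adjusted p = 3.52e-04). For both genes the 3 stages did not overlap; 9.61% of genes were higher without overlap from E14 to P0 and 14.4% from P0 to adult.

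Olfml3 rose from 1119 to 2605 at P0 to 4505 to 7042 in adults (1.66 ± 0.20, adjusted p = 7.88e-07), and Bin1 from 1557 to 2722 at P0 to 2706 to 3426 in adults (0.58 ± 0.19, adjusted p = 0.0168; 0.054 without P0 control 3). Hpgd first fell, from 361 to 499 at E14 to 239 to 402 at P0 (-0.55 ± 0.18, adjusted p = 0.0352), with overlap and with the call lost in all but 3 of the 9 fits that left out 1 library of these stages (E14 library 2, P0 libraries 3 and 4), and then rose to 756 to 1342 (1.86 ± 0.17, adjusted p = 2.25e-08). The sort gate for E14 differed from that of the other stages, and P0 libraries held more red-cell RNA (4 globin and haem genes summed to 10156 to 43172 in controls) than E14 (363 to 728) or adult ones (36.3 to 1622). The 7 border macrophage markers summed to 477 to 748 at E14, 801 to 1101 at P0 and 20.2 to 81.3 in adults; the part of gate and other cells in these values was not tested.

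Cx3cr1 and Slc2a5 were uneven among the 5 adults of this experiment. Cx3cr1 read 3295 to 3471 at E14 and 3744 to 5801 at P0, but 7453.5, 490, 8687, 1188.5 and 940 in adults 1 to 5, and had no call (-1.17 ± 0.58 from P0, adjusted p = 0.106), though without adult 1 or adult 3 it passed as lower (-1.64, adjusted p = 0.0202, and -1.69, adjusted p = 0.0128). Slc2a5 read 219 to 390.2 at E14, 44.4 to 185 at P0 and 1227, 113, 51.8, 1034 and 881 in adults, rising by 1.67 ± 0.64 from P0 (adjusted p = 0.0388) with overlap; leaving out adult 1, 4 or 5 or P0 control 2, 3, 4 or 5 ended that call (adjusted p = 0.0503 to 0.124). The low libraries are not the same for both genes: adult 2 was low for both, adults 4 and 5 for Cx3cr1 only and adult 3 for Slc2a5 only. Tmem119, Selplg, Adgrg1 and Sparc in these 5 libraries differed by at most 1.49-fold between the highest and the lowest.

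**Figure D4:**
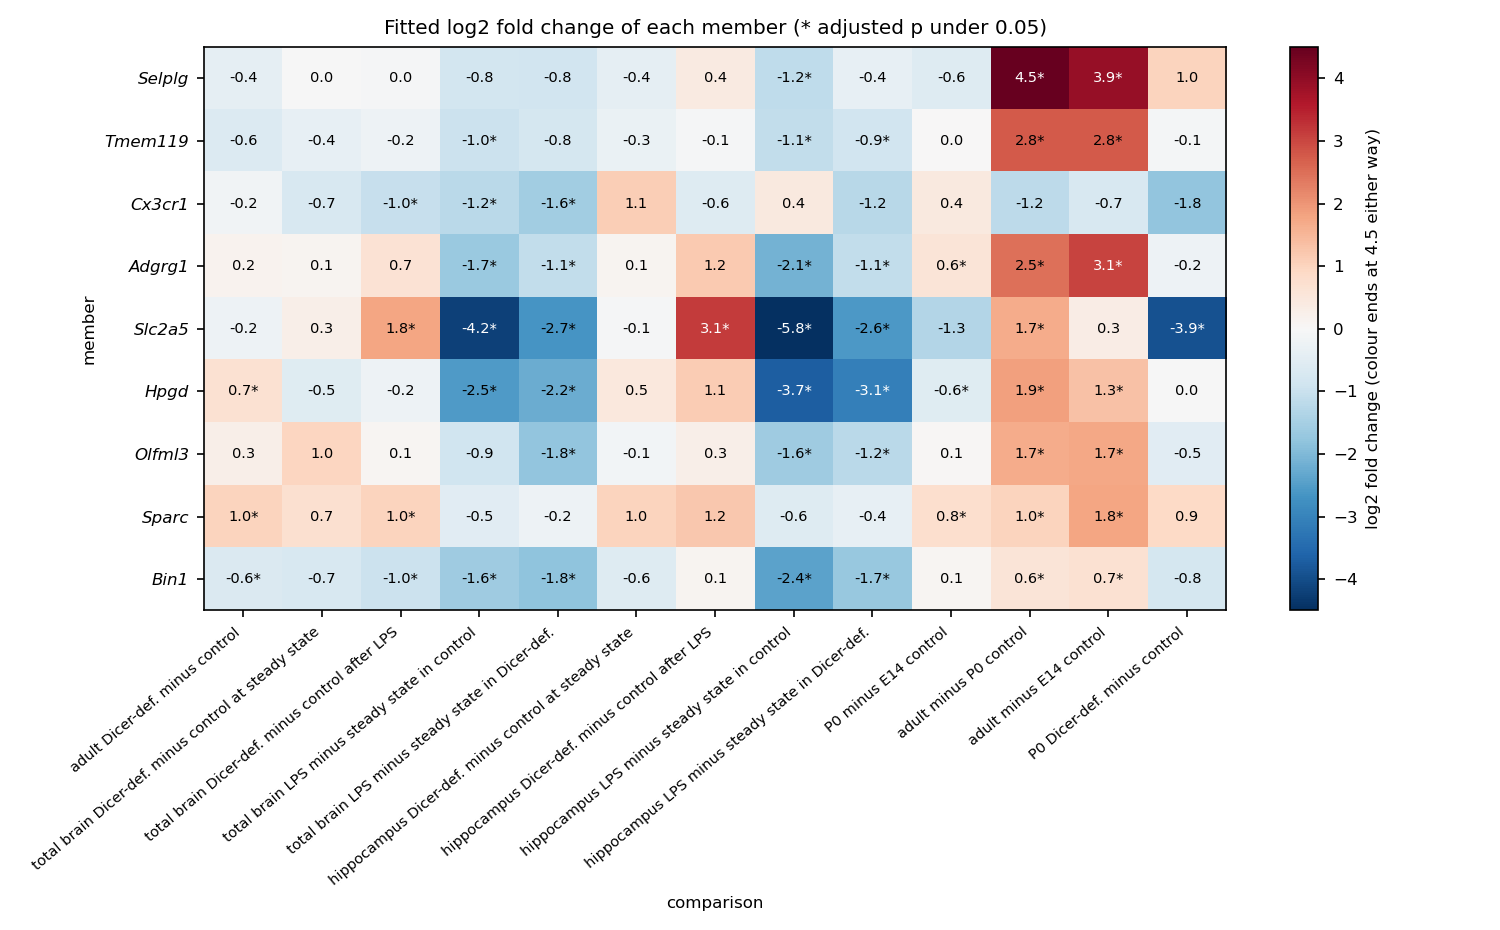
Log2 fold changes of the 9 members in 13 comparisons (colour, ends at 4.5 in either direction), with an asterisk where the adjusted p from limma was below 0.05. The LPS-minus-steady-state columns are negative for all members but Cx3cr1 in hippocampal controls, the adult-minus-P0 column is positive for all but Cx3cr1, and the Dicer columns are mixed, with Sparc positive in each.

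A wider list of 28 homeostatic microglial genes was counted in the same comparisons. After LPS 17 fell and 0 rose in total brain controls (7.08% of all genes fell), and 16 fell and 1 rose in total brain Dicer-deficient libraries (12.8% fell). In hippocampus 15 fell in controls (2.89% of all genes) and 13 in Dicer-deficient libraries (4.61%), with 0 rising. P2ry12, the purinergic receptor that guides microglial processes, fell at log2 fold changes of -2.50 ± 0.44 and -2.86 in total brain controls and Dicer-deficient libraries and of -3.60 ± 0.32 and -3.16 in hippocampus. From P0 to adult 20 rose (19.2% of all genes did) and 3 fell, among the latter Gas6, a ligand of phagocytic receptors, at a log2 fold change of -2.20 ± 0.16. Few were called between genotypes: 1 of 28 in the adult experiment, Gas6, higher by 1.14 ± 0.28 (adjusted p = 0.0242), 1 in total brain at steady state, Serpine2, a protease inhibitor, lower (-0.97 ± 0.22, adjusted p = 0.0253), 2 in total brain after LPS, 0 in hippocampus at steady state and 1 there after LPS. The Fc receptor-like gene Fcrls was called after LPS in both regions, at -1.59 ± 0.22 in total brain (adjusted p = 3.39e-04) and -1.83 ± 0.25 in hippocampus (adjusted p = 8.40e-03).

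The members did not vary as 1 block. Over all 46 libraries, with each gene's log2 value centred within its table, the Pearson correlation of a member with the mean of the other 8 was 0.88 for Adgrg1, 0.87 for Hpgd, 0.83 for Olfml3, 0.81 for Tmem119, 0.78 for Bin1, 0.68 for Selplg, 0.64 for Slc2a5, 0.47 for Sparc and 0.145 for Cx3cr1. The closest pair was Tmem119 and Selplg (0.952), and Cx3cr1 and Sparc ran against each other (-0.212). Of 8445 other genes with a mean of at least 10 in every table, those most like the members' mean were Gna15 (0.936), Nav2 (0.933), Pmepa1 (0.932), Capn3 (0.922) and Chst8 (0.918). These correlations are descriptions over libraries that share tables, conditions and depth.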

How the data were processed

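Libraries of sorted mouse microglia were made by oligo-dT capture, per the labels' protocols, and the submitters' processing notes name bcl2fastq, HISAT 0.1.5, SAMtools, HOMER, DESeq2 and the build mm9, in no stated role. The 4 deposited tables hold a signal per gene that the authors scaled with 1 factor per library, each table apart. At least 99.95% of values in every library came out as whole reads (within 0.1 read) when divided by that factor. No 2 of the 1035 pairs of libraries held equal reads for more than 2.78% of genes, so none was treated as a duplicate. The series' text gives both adult groups 1 genotype string and 3 Dicer-deficient total brain LPS libraries; the sample labels, with 4, were followed.

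Values were tested as log2(value + 1) with limma 3.58.1 in R 4.3.3, keeping genes whose value reached 1 in at least the number of libraries of the smaller group, with 1 fit per table (adult and P0 Dicer: those groups alone; the P0 fit with controls 1 to 3, which the labels assign to it). P-values were Benjamini-Hochberg adjusted over all genes tested. The quasi-likelihood test of edgeR 4.0.16 (TMM or RLE scaling) and DESeq2 1.42.0 on the recovered reads, other pseudocounts (0.1 and 5), no filter, fits on the compared groups only, a replicate block and leaving out each library were alternatives. In the adult comparison, edgeR with TMM called 682 and DESeq2 668 genes, limma 569. The fits were tested on simulated data.

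The 9 members are always named, of the wider list only genes with the 3 smallest p in a comparison, and of other genes the 5 most correlated with the members. Members, lists and motifs were chosen with earlier results of these data known; the miRNAs and seed matches, Saa3, Tnf and Il1b were chosen after seeing the values. Some results for single genes of the wider list are not reported here.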

Additional observations from a re-analysis of the deposited data

Results flagged for a closer look

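In 8 of 54 sets of 4 or 5 libraries (1 gene in 1 group) 1 library lay far from the others. Chance gives about 1 in 20 for a single set of normally distributed values. The sets share libraries across genes, so they are not independent. Of the 8, 4 were total brain control LPS library 33: Adgrg1 read 1695.5 (others 489.5 to 661.6), Bin1 3063 (827.6 to 1176), Hpgd 1087 (90.8 to 206.4) and Sparc 19518 (11585 to 12214), each nearer the steady-state level. The other 4 were single libraries: adult control 2 for Selplg (60820.1, others 43780.5 to 46002), P0 control 4 for Sparc (8071, others 4870.5 to 5740.3), stage adult 1 for Bin1 (3426, others 2706 to 2869.6) and stage adult 5 for Adgrg1 (1002, others 1298 to 1388).

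Among the comparisons without LPS, 3 members had Dicer differences of opposite sign in a pair of comparisons, with every Dicer-deficient library on 1 side of its controls in each; the difference between the pair was not tested. Hpgd was at a log2 fold change of -0.53 in total brain and 0.47 in hippocampus at steady state. Olfml3 was at 0.97 in total brain at steady state and -0.51 at P0. Selplg was at -0.40 in hippocampus at steady state and 1.00 at P0. The P0 values use controls 1 to 3; with all 5 controls Olfml3 (-0.24) and Selplg (0.79) overlapped. Of all genes, 9.15% were higher and 13.7% lower without overlap in total brain, 10.5% and 13.7% in hippocampus and 17.3% and 20.6% at P0. Every pair of the 4 comparisons without LPS was searched. The share of all genes with opposite signs in some pair was not counted, so the 3 members cannot be called unusual.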

How the results depend on the processing

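Of 52 calls on a member in a comparison, 32 held under every alternative, and of 1944 alternative values 0 reversed a call; 109 lost one and 44 gained one. Counts of members called made smaller moves, among them 4 to 7 for LPS in total brain controls (6), up to 8 in Dicer-deficient ones (6) and 5 in hippocampal controls (7). Adult genotypes (3) gave 2 to 4. Larger moves, or moves to or from 0, were as follows. In total brain at steady state (0), fitting only the compared groups gave 1, Bin1, and DESeq2 gave 1, Sparc. In total brain after LPS between genotypes (4), a pseudocount of 0.1, no filter and only the compared groups each gave 0. In hippocampus at steady state (0), only the compared groups gave 1 and DESeq2 gave 1, Sparc each time. In hippocampus after LPS between genotypes (1), a pseudocount of 0.1 and only the compared groups gave 0, edgeR gave 2 with TMM and 3 with RLE scaling, and DESeq2 gave 4. In the hippocampal interaction (0) DESeq2 gave 1, Slc2a5 at 2.95 (adjusted p = 5.47e-04). From E14 to P0 (3), only the compared groups gave 6. At P0 between genotypes (1), DESeq2 gave 3 and all 5 controls gave 2. The cause of each was not tested. Leaving out 1 library in turn gave 0 to 4 at P0 between genotypes, 1 to 4 from E14 to P0, 1 to 3 in adults, 7 to 7 from E14 to adult, 6 to 9 from P0 to adult, 0 to 1 in each hippocampal genotype comparison and the interaction, 2 to 6 and 5 to 7 for hippocampal LPS in Dicer-deficient and control, 0 to 3 for total brain genotypes after LPS and 0 to 0 at steady state and for the interaction, and 6 to 6 and 4 to 8 for total brain LPS in Dicer-deficient and control. Deviations from the group mean correlated at -0.203 to 0.161 between same-numbered libraries, which does not settle whether shared numbers pair them. At P0 controls 1 and 2 each matched the same-numbered Dicer-deficient library best (0.161 and 0.124), with only 2 such libraries to match. The replicate block gave 2 members in adults (Hpgd lost, adjusted p = 0.0784) and 2 from E14 to P0 (Hpgd lost, adjusted p = 0.0709). It gave 8 and 7 in the adult stages and 1 at P0, and moved all calls at P0 between genotypes from 194 to 583. Within the total brain and within the hippocampal table no groups compared share a number. With TMM scaling the share of higher calls over all genes went from 36.6% to 52% in total brain at steady state, from 49.9% to 63.4% for LPS in total brain controls, from 90.5% to 68.9% in hippocampus at steady state and from 36.5% to 47.2% from E14 to P0, and the median of all genes from E14 to adult from -0.13 to 0.02. Low reads limit Slc2a5 at P0 and in hippocampus after LPS.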
